A study of Mus musculus with 6 samples.

Results

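In EHMT2-depleted mouse embryonic stem cell (ESC) cultures, 14850 intergenic regions carried a DPPA4 peak in the cells without MERVL-GFP and no overlapping peak in the cells with it. They were selected on the peak calls themselves. Peaks of both deposited lists on chromosomes 1 to 19 were merged where they shared at least 1 bp, which gave 97623 regions. A region was kept when all of its peaks came from the GFP-negative list. Its midpoint also had to lie outside every gene body of GENCODE vM21 and outside the stretch from 2.5 kb upstream to 0.5 kb downstream of every transcript start. Of 30747 intergenic regions, 14850 passed, or 48.3% (Wilson 95% interval 47.7 to 48.9, for counting error only), and they are called GFP-negative-only intergenic regions here. The other intergenic regions were common, with peaks of both lists (8785), or GFP-positive-only (7112).

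The series asked where DPPA4 sits in ESCs and in 2-cell-like cells (2CLCs). All 6 libraries came from 1 cell line named EHMT2-dTAG-mcherry-mervl-gfp, of the strain BL6/129 hybrid, in which EHMT2 (a histone methyltransferase) carries a tag for induced degradation. Both sorted groups had received dTAG for 72 h, so EHMT2 degradation had been induced in both, and cells given DMSO were not profiled here. Live cells were sorted by a GFP reporter under the MERVL retroviral promoter, and DPPA4 was profiled by CUT&RUN, in which an antibody guides a nuclease to cut out the DNA around a protein. The GFP-negative group stood for ESCs and the GFP-positive group for 2CLCs. Each had 2 DPPA4 libraries, and 2 further IgG libraries were not used here. The cells grew on mouse feeder fibroblasts, the reporter lines were derived from picked clones, and the labels and the methods of the study give different cell numbers per sample.

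DPPA4 is a small DNA-binding protein of pluripotent cells and early embryos that acts with its partner DPPA2. ESCs express the pluripotency factors OCT4 (Pou5f1), SOX2, NANOG, KLF4 and ESRRB, which meet at distal enhancers between genes. 2CLCs are rare cells in ESC cultures that transcribe genes and MERVL elements of the 2-cell embryo. Enhancers are short, mostly unique stretches of DNA that can lie far from the gene they act on, so the nearest gene named below is a position and not a target.

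The sequence at the centre of some of these regions is shown first, from mm10 (GRCm38) on the + strand, as the summit (the base with the most fragments) and 100 bp to either side, the window used throughout. The first set holds the strongest regions with a copy number of 1, and the strongest one next to Sox2. Copy number is the median count of a window's 31-base words on the assembled chromosomes. Copies elsewhere were not counted, so a value of 1 does not show that the sequence is unique. Capitals mark each CpG, since CpG content set common regions apart from the other classes. The windows lie at chr1:136364830-136365030 (nearest gene Camsap2), chr11:117934270-117934470 (Socs3), chr1:135217734-135217934 (Elf3), chr2:22744780-22744980 (Apbb1ip) and chr3:34745334-34745534 (Sox2). Their CpG counts were 9, 1, 6, 13 and 1, in that order, and their GC contents 55.7%, 62.7%, 57.2%, 52.7% and 45.8%.
Camsap2 region: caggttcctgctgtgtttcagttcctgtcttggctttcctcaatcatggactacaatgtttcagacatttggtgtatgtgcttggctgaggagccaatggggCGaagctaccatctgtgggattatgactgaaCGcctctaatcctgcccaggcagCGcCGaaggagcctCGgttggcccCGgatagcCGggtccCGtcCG
Socs3 region: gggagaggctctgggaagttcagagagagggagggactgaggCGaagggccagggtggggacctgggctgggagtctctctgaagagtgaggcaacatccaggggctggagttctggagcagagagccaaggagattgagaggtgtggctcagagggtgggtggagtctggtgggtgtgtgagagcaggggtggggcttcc
Elf3 region: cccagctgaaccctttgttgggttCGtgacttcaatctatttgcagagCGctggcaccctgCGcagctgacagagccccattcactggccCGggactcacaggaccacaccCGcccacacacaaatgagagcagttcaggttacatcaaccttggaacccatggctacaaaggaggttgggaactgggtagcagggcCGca
Apbb1ip region: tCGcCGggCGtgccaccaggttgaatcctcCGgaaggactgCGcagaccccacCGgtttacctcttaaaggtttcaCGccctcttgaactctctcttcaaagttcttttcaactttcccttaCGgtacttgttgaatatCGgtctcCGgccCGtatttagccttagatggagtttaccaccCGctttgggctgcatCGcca
Sox2 region: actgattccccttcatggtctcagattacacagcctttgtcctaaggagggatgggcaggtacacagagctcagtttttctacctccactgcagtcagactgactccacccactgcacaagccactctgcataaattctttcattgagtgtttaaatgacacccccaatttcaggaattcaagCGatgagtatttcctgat

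The second set holds the strongest single-copy region with each of 5 short DNA words that the results below turn on, with the word in capitals on whichever strand it lay. The words were GGGTGTGGC (bound by KLF factors), ATGCAAAT (the octamer of POU factors such as OCT4), ATTGTNATG (a joint SOX and OCT site, where N is any base), GGAATGT (TEAD factors) and TCAAGGTCA (ESRRB). The windows lie at chr8:89015670-89015870 (Sall1), chr1:119388786-119388986 (Inhbb), chr1:36061156-36061356 (Hs6st1), chr3:52413321-52413521 (Foxo1) and chr17:35485876-35486076 (H2-Q10). The word lay 37, 14, 32, 17 and 44 bp from the summit. A match is a description of the letters and does not show that the factor was there.
Sall1 region, KLF letters: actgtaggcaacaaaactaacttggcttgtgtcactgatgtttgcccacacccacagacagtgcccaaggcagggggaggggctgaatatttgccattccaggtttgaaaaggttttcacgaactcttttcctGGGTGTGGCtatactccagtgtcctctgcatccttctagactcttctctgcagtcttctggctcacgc
Inhbb region, octamer letters: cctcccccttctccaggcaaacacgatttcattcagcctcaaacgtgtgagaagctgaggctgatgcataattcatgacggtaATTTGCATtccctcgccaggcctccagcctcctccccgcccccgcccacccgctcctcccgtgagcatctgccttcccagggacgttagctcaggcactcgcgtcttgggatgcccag
Hs6st1 region, OCT-SOX letters: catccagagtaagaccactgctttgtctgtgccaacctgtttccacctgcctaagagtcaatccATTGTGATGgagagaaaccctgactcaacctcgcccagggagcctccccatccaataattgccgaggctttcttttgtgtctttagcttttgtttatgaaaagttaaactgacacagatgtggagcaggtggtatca
Foxo1 region, TEAD letters: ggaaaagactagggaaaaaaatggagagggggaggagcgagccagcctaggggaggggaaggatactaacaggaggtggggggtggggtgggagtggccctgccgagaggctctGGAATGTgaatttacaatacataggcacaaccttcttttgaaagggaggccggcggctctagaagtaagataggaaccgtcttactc
H2-Q10 region, ESRRB letters: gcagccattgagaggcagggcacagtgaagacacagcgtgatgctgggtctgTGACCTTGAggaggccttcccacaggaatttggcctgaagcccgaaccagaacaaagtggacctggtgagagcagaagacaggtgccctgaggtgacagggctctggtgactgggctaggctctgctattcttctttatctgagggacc

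Each deposited list pools its replicates, so no value has a spread between replicates and no difference between the groups could be tested. Peaks were in the lists from a −log10 q of 1.3 upward, where q is the authors' adjusted p-value of a peak and larger values mean a stronger peak. The GFP-negative list held 81913 peaks on chromosomes 1 to 19 and the GFP-positive list 53110, and the number of reads behind each is unknown. Whether the IgG libraries served as the control of the peak calls, and so entered q and fold enrichment, is not given in the sources used here. A longer list holds more peaks without a partner. Signal below the peak threshold was not analysed here, so the regions are those without a called GFP-positive peak, and absence of DPPA4 in GFP-positive cells was not measured.

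Most GFP-negative-only intergenic regions were weak and narrow. Their median −log10 q was 2.7 (quartiles 1.86 and 4.57), their median fold enrichment, the authors' ratio of fragments over the background of the peak caller, was 3.76 (3.31 and 4.67), and their median width was 460 bp (293 and 704). For common intergenic regions the medians were 9.92 in −log10 q, 6.66-fold and 1010 bp. Of the 14850 regions, 3371 (22.7%, 22.0 to 23.4) had a −log10 q of at least 5 and 1100 (7.41%, 7.0 to 7.84) one of at least 10. These values are those that chose the regions or move with them, and are given as a description.

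Whether an intergenic GFP-negative peak lacked a partner went with its strength. Between a −log10 q of 1.3 and 2, 86.4% (85.4 to 87.4) of 4893 such regions had no GFP-positive peak. This share was 79.5% from 2 to 3, 69.5% from 3 to 5, 52.9% from 5 to 10 and 34.3% from 10 to 20. Above 20 it was 10.1% (8.89 to 11.4), and 228 regions remained. Width grew along the same bins, from a median of 337 bp in the weakest to 1036 bp in the strongest GFP-negative-only regions.

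**Figure D1:**
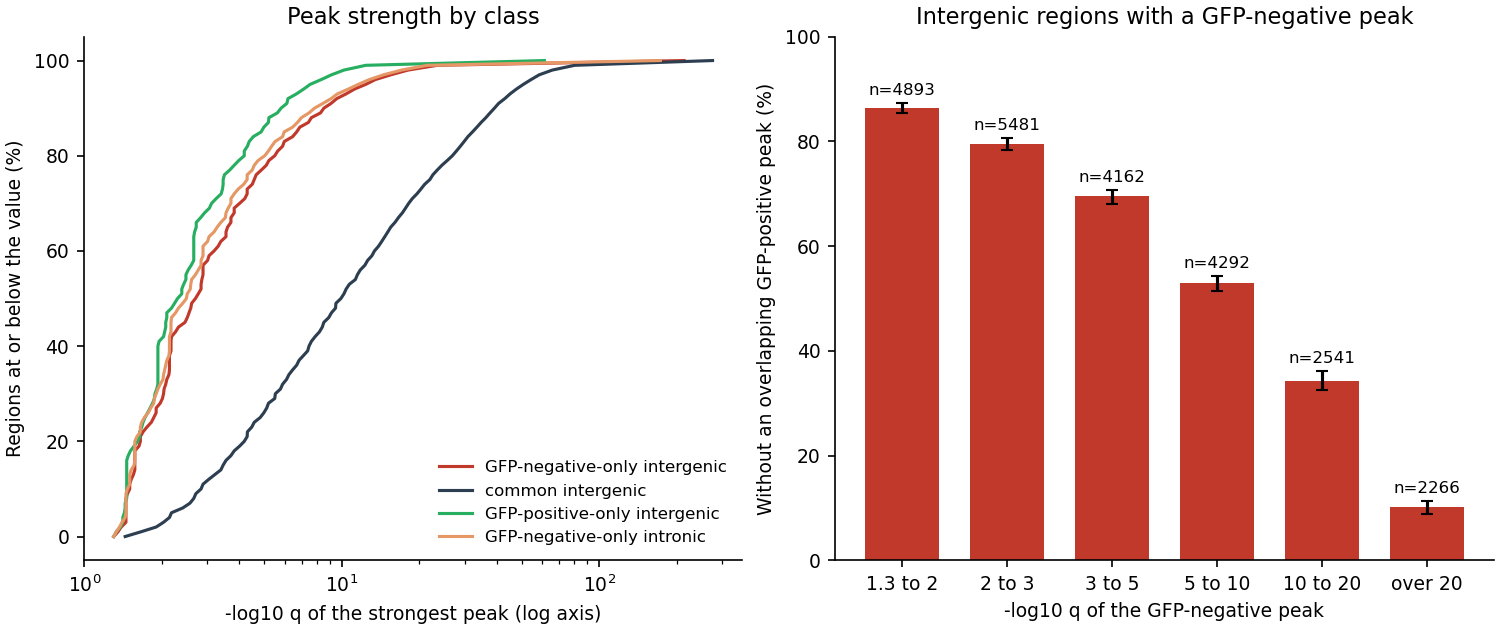
Left, the percentage of regions (vertical) at or below each −log10 q of the strongest peak (horizontal, log axis) for 4 classes of regions. Right, the percentage of intergenic regions with a GFP-negative peak that had no overlapping GFP-positive peak, in bins of −log10 q, with Wilson 95% intervals as error bars and n as the number of regions. The share was 86.4% in the weakest bin and 10.1% in the strongest.

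At the edge of the rule, 36 regions had a GFP-positive peak within 100 bp, the nearest touching without overlap, and their median −log10 q was 2.17 (range 1.34 to 16.3). Just outside it, 43 common intergenic regions shared at most 100 bp between their peaks, with a median −log10 q in the GFP-negative list of 2.17 (1.3 to 17.2). The median gap from a GFP-negative-only intergenic region to the nearest GFP-positive peak was 11.6 kb (quartiles 3.81 and 31.8 kb). A GFP-positive peak lay within 1 kb of 7.76% of the regions and within 50 kb of 83.9%.

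The regions consisted mainly of unmasked sequence with a copy number of 1. At the summit, a mean of 22.7% ± 28.9 (SD, n = 14850 regions) of the window was soft-masked, the lower-case sequence of the reference that marks repeats. The mean was 55.2% ± 43.5 (n = 8785) in common and 60.2% ± 39.7 (n = 7112) in GFP-positive-only intergenic regions. Masked sequence was rarer at the summit of GFP-negative-only regions than 1.5 to 2 kb away (22.7% against 31.3%), and more frequent at the summit in both other intergenic classes (55.2% against 49.4% and 60.2% against 50.9%). By copy number, the median count of a window's 31-base words on the assembled chromosomes, 91.8% (91.3 to 92.2) of GFP-negative-only regions were single-copy. A share of 4.63% (4.30 to 4.98) had 10 or more copies. In common intergenic regions 42.2% (41.2 to 43.3) and in GFP-positive-only ones 37.2% (36.1 to 38.3) had 10 or more copies. Reads that match several places were put at 1 of them at random by the authors, so a peak in multi-copy sequence does not say which copy was occupied.

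The GC content of the windows had a median of 51.7% (quartiles 47.8 and 55.2), and its mean was 51.6% at the centre and 45.8% at 1.5 to 2 kb away. A window held 3.49 ± 2.93 CpG (SD, n = 14850), and only 4.13% (3.83 to 4.47) held 10 or more. Common intergenic regions had a median GC content of 58.7% and 7.80 ± 4.91 CpG (SD, n = 8785), and 42.9% (41.8 to 43.9) held 10 or more. GFP-positive-only intergenic regions were closer, with 4.28 ± 3.81 CpG (SD, n = 7112) and 12.4% (11.7 to 13.2). Among single-copy windows the gap was smaller, at 3.43 CpG in GFP-negative-only and 5.13 in common regions, and GFP-positive-only ones had 3.08. In GFP-negative-only regions GC content hardly moved with peak strength, with medians from 51.2% to 53.2% over the bins of −log10 q. In common intergenic regions it ran from 52.7% in the weakest to 64.2% in the strongest bin.

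**Figure D2:**
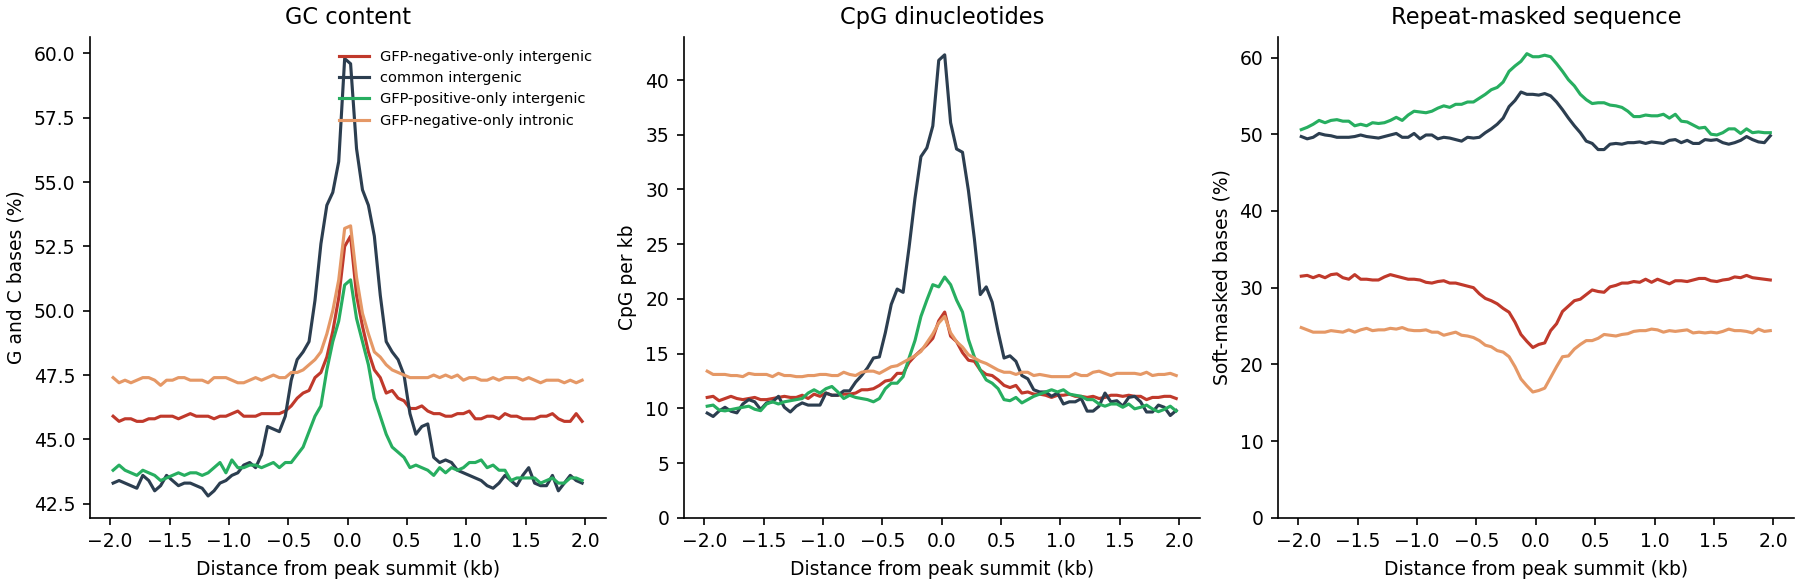
GC content (%), CpG per kb and soft-masked bases (%) in 50-bp bins against the distance from the peak summit (kb), as means over the regions of 4 classes. GFP-negative-only regions, intergenic and intronic, dip in masked sequence at the summit, to 22.7% and 16.8%, where common and GFP-positive-only intergenic regions peak.

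In composition the regions resembled the 18871 GFP-negative-only regions inside introns. Those had a median GC content of 52.2%, 3.50 ± 2.82 CpG per window (SD, n = 18871), 16.8% soft-masked bases and a multi-copy share of 2.25% (2.04 to 2.47). Their median −log10 q was 2.49, against 2.7 between genes.

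DNA words of pluripotency factors were more frequent at the summits than in the flanks, and nearly as frequent in GFP-negative-only introns. Introns held the KLF letters in 2.73% (2.51 to 2.98), the octamer in 2.37% (2.16 to 2.60), the TEAD letters in 6.10% (5.77 to 6.46) and the ESRRB letters in 1.36% (1.21 to 1.54). A word counted when it occurred on either strand of the window, and each share is set beside that of all 97623 regions, promoters included, and beside that of windows of equal length 1.8 kb to either side. The KLF letters GGGTGTGGC occurred in 2.96% (2.7 to 3.24) of GFP-negative-only intergenic regions, against 2.13% of all regions and 0.495% of their own flanks. Common intergenic regions held them in 2.30% (2.01 to 2.63). Among single-copy windows the 2 classes did not separate, at 3.02% (2.74 to 3.32) and 3.39% (2.90 to 3.96) in common regions. The shorter letters GCCACACC, which the reverse strand of the first word contains, occurred in 5.48% (5.13 to 5.86), against 3.98% of all regions and 1.38% of flanks. KLF4 and KLF2 are factors of the naive pluripotent state and read such GC-rich words.

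The octamer ATGCAAAT occurred in 3.15% (2.88 to 3.44) of the regions, against 1.81% of all regions and 1.13% of flanks. The joint letters ATTGTNATG, which like GCCACACC were added after word counts in these regions had been seen and support nothing on their own, occurred in 1.71% (1.51 to 1.93), against 0.780% of all regions and 0.741% of flanks. In GFP-positive-only intergenic regions the joint letters occurred in 0.239% (0.149 to 0.382), below the 0.661% of the flanks of those regions, and in common ones in 0.467% (0.344 to 0.632). The octamer was at 2.15% (1.84 to 2.52) in GFP-positive-only regions, but at 0.857% (0.601 to 1.22) in the single-copy ones among them, where GFP-negative-only regions had 2.72% (2.46 to 3.0).

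The TEAD letters GGAATGT, read by partners of the Hippo pathway factor YAP, occurred in 6.95% (6.55 to 7.37) of GFP-negative-only intergenic regions, against 4.22% of all regions and 2.72% of flanks. The ESRRB letters TCAAGGTCA occurred in 1.35% (1.18 to 1.55), against 0.880% of all regions and 0.774% of flanks. With both lists limited to their 10000 strongest peaks, the ESRRB share was 0.654% (0.280 to 1.52). That interval held both the 1.35% and the 0.880% of all regions. The AP-1 letters TGANTCA were at 8.07% (7.64 to 8.52), against 6.18% of all regions, but their flanks were already at 5.81%. At least 1 of the words GGGTGTGGC, ATGCAAAT, GGAATGT and TCAAGGTCA was present in 13.7% (13.1 to 14.2) of the regions, against 8.70% of all regions and 5.03% of flanks. The share was 12% (2272 of 18871) in GFP-negative-only introns, 6.82% (6.31 to 7.36) in common and 7.09% (6.51 to 7.71) in GFP-positive-only intergenic regions. Among single-copy windows it was 13.2% (12.7 to 13.8), 11.9% (11.4 to 12.3), 10.7% (9.81 to 11.6) and 5.97% (5.23 to 6.81), in the same order of classes.

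The CTCF, GC box, NFY and YY1 letters were less frequent than over all regions, promoters included. Like the words above, they were more frequent than in flanks. The flanks held them in 2.36%, 0.956%, 0.593% and 0.182%, in that order. Among single-copy windows the YY1 letters did not exceed their flanks (0.176% against 0.183%). The CTCF letters CNAGGNGGC, of the factor that anchors chromatin loops, were at 5.06% (4.72 to 5.42) against 5.99%. The GC box GGGCGGGG of SP factors was at 4.62% (4.29 to 4.97) against 7.92%, and the NFY letters GCCAATCA at 1.86% (1.65 to 2.09) against 2.41%. Common and GFP-positive-only intergenic regions held the CTCF letters in 4.88% and 3.70%, and the GC box in 4.27% and 2.43%. They held the NFY letters in 2.66% and 4.01%. Among single-copy windows, CTCF letters were in 5.27% of GFP-negative-only, 8.11% of common and 3.80% of GFP-positive-only regions. For the GC box these shares were 4.84%, 7.70% and 2.06%. The letters AAGATGGCG, bound by YY1, stood furthest apart between the classes. They occurred in 0.519% (0.415 to 0.648) of GFP-negative-only intergenic regions, 17.7% (17.0 to 18.5) of common ones and 3.21% of all regions. Among single-copy windows these shares were 0.176% (0.118 to 0.262) and 0.678% (0.478 to 0.961). When both lists were limited to their 10000 strongest peaks, 8.38% (6.61 to 10.6) of the 764 remaining GFP-negative-only intergenic regions held the YY1 letters, and 11.3% (9.21 to 13.7) of them had 10 or more copies, so the low share depended on that choice.

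**Figure D3:**
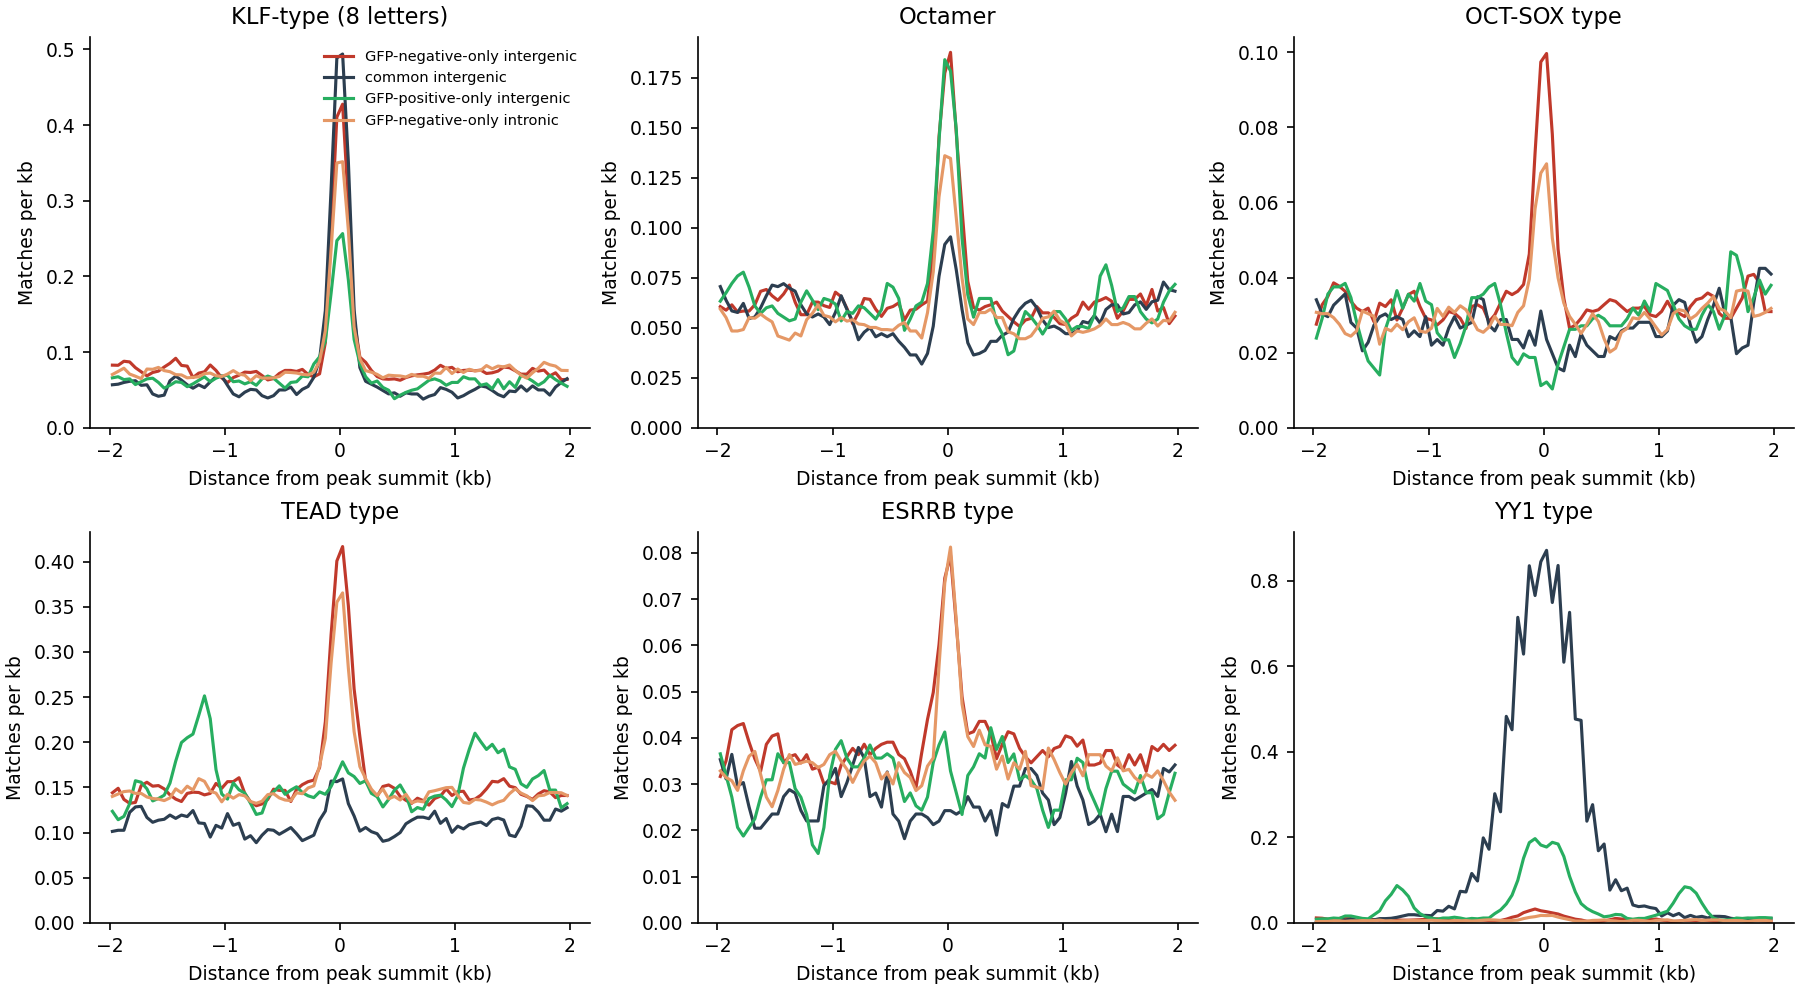
Matches per kb (vertical) of 6 DNA words on either strand against the distance from the peak summit (kb), in 50-bp bins averaged over 3 neighbours, for 4 classes of regions. OCT-SOX, TEAD and ESRRB letters peak at the summits of GFP-negative-only regions, and YY1 letters at those of common intergenic regions. The OCT-SOX and KLF-type letters shown were added after word counts in these regions had been seen.

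Some of the words were more frequent in stronger regions. The OCT-SOX and shorter KLF letters were added after word counts in these regions had been seen, so their values below support nothing on their own. Among single-copy GFP-negative-only intergenic regions, the OCT-SOX letters were in 1.31% (1.11 to 1.55) below a −log10 q of 5, in 2.30% (1.74 to 3.04) from 5 to 10 and in 4.11% (3.07 to 5.50) from 10 upward. For the octamer these shares were 2.38%, 3.55% and 4.40%, and for the shorter KLF letters 5.05%, 6.29% and 8.13%. The ESRRB letters showed no such order, with 1.44%, 1.25% and 1.63%. Single-copy common intergenic regions of the same strength in the GFP-negative list held the OCT-SOX letters in 0.763%, 0.711% and 1.15% (0.718 to 1.83 in the strongest). TEAD letters were in 8.59% (7.46 to 9.87) of GFP-negative-only against 3.38% (2.47 to 4.6) of common regions from 5 to 10, but in 7.75% (6.28 to 9.53) against 7.02% (5.83 to 8.44) from 10 upward. The shorter KLF letters did not separate these classes, at 8.13% (6.63 to 9.95) against 9.18% (7.82 to 10.8) in the strongest bin.

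Relative to genes, the regions lay at a median of 25.6 kb (quartiles 10.6 and 67.0 kb) from the nearest start of a protein-coding transcript. Within 50 kb of one were 68.2% (67.4 to 68.9), against 56.0% (54.9 to 57) of common and 60.4% (59.3 to 61.6) of GFP-positive-only intergenic regions. Farther than 200 kb were 7.98% (7.55 to 8.43), 21.0% (20.2 to 21.9) and 17.1% (16.2 to 18). GFP-negative-only regions thus made up 53.9% of the intergenic regions from 20 to 50 kb of a start and 18.2% of those beyond 500 kb. They lay upstream of the nearest start in 61.0% (60.2 to 61.7), and GFP-positive-only regions did in 60.8% (59.6 to 61.9). RefSeq, a second annotation, placed a gene over the midpoint of 14.3% (13.8 to 14.9).

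Another GFP-negative-only intergenic region lay within 50 kb of 78.6% (77.9 to 79.3), with a median distance of 8.18 kb to the next. This share grows with the number of regions in a class. It was 84.0% for the more numerous GFP-negative-only introns, 85.1% for all intergenic regions and 52.8% for the fewer common ones, and 48.3% among GFP-negative-only intergenic regions whose −log10 q was 5 or more and 20.8% with the 10000 strongest peaks of each list. Chaining neighbours within the distance commonly used to join enhancers into super-enhancers gave 9050 groups. Of these, 6277 were single regions, and 1249 groups of 3 or more held 5525 regions (37.2%). Density varied from 7.19 regions per Mb of intergenic sequence on chromosome 3 to 23.9 on chromosome 11, where common (12 per Mb) and GFP-positive-only regions (9.14 per Mb) were also densest.

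The largest group held 25 regions over 93.5 kb of chromosome 11 (chr11:117536677-117630166), next to Tnrc6c, which encodes a partner of Argonaute in miRNA silencing. All 25 were single-copy, 1 common region lay among them, and the median −log10 q was 2.73. Groups of 20 regions lay on chromosome 17, near Sik1 (a salt-inducible kinase) and Cryaa (a lens crystallin) over 67.2 kb and near Foxp4 (a forkhead factor) over 96.6 kb. Next came 18 regions near 2410131K14Rik on chromosome 5, 16 each near Myh9 (non-muscle myosin heavy chain) and Txn2 (mitochondrial thioredoxin) and near Actrt2, and 15 near Sept9 (a septin). A group of 14 spanned 71.7 kb next to Socs3, with 5 common regions and 1 GFP-positive-only region among them. Another 14 near Col18a1 (collagen XVIII) and Pofut2 (a protein fucosyltransferase) had the highest median −log10 q of the 10 groups, 6.49. The last of the 10, near Btg2 and Fmod, held 13 regions, a size it shared with other groups.

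Of 20780 protein-coding genes, 5859 (28.2%) were the nearest gene, within 200 kb, of at least 1 GFP-negative-only intergenic region, 627 of 5 or more and 14 of 20 or more. Sulf2, a sulfatase that trims heparan sulfate, and Rybp, a subunit of variant Polycomb complexes, had the most with 33 each. At Sulf2 all 33 lay upstream, up to 196 kb from the start, with a median −log10 q of 2.3, beside 4 common regions and 1 GFP-positive-only region. At Rybp, 18 were upstream and 15 downstream, with 3 common regions and none that was GFP-positive-only. Sik1 had 29, the germ-line and trophoblast factor Tfap2c (listed here with pluripotency) 28, and 2410131K14Rik 25. Sall1 (a zinc-finger factor of ESCs and kidney), Med13l (Mediator) and Hes1 (a repressor downstream of Notch) had 24 each. The pluripotency-associated zinc-finger gene Zfp281 and Fam43a had 23 each. These counts were not corrected for how much intergenic sequence surrounds each gene.

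Among genes grouped by role, those of pluripotency often bordered the regions. Of 29 listed pluripotency genes on chromosomes 1 to 19, 25 (86.2%) were nearest to at least 1, against 28.2% of all protein-coding genes. The same genes were also often nearest to a common intergenic region (65.5%, against 21.4% of all genes), so the share of regions is the closer comparison. Near these genes, 185 of 262 intergenic regions (70.6%, 64.8 to 75.8) were GFP-negative-only, against 51.6% near any protein-coding gene. Among single-copy regions the share was 74.2% (68.4 to 79.2), against 62.5% (61.9 to 63.2).

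Shares of a like size were found near other lists. The share was 73.5% (66.7 to 79.3) near genes of signalling inhibitors and ligands, 77.6% (65.3 to 86.4) near trophoblast genes and 73.0% (61.9 to 81.8) near formative and primed genes. Near neural genes, most of which are silent in ESCs, it was 69.0% (58.5 to 77.9). Where the −log10 q was 5 or more, however, the neural share was 39.4% (13 of 33), near the 35.2% of all protein-coding genes. It was 60.7% (54 of 89) for pluripotency, 58.3% (42 of 72) for signalling, 70.6% (12 of 17) for trophoblast and 64.0% (16 of 25) for formative and primed genes. For primitive endoderm genes it was 31.2% (5 of 16), and for primitive streak and mesoderm genes 41.7% (5 of 12). These counts are small, and no intervals were computed at this strength. At any strength, the shares near primitive endoderm genes (56.8%, 42.2 to 70.3) and near genes of the primitive streak and mesoderm (58.1%, 43.3 to 71.6) had intervals that held the overall 51.6%. Genes of the 2-cell stage stood at the other end. Of 106 intergenic regions near them, 3 (2.83%, 0.967 to 7.99) were GFP-negative-only and 94 GFP-positive-only. Many of these genes, such as the Zscan4 and Obox families, lie in arrays of near-identical copies, and only 31 of the 106 regions were single-copy, of which 1 (3.23%, 0.572 to 16.2) was GFP-negative-only.

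**Figure D4:**
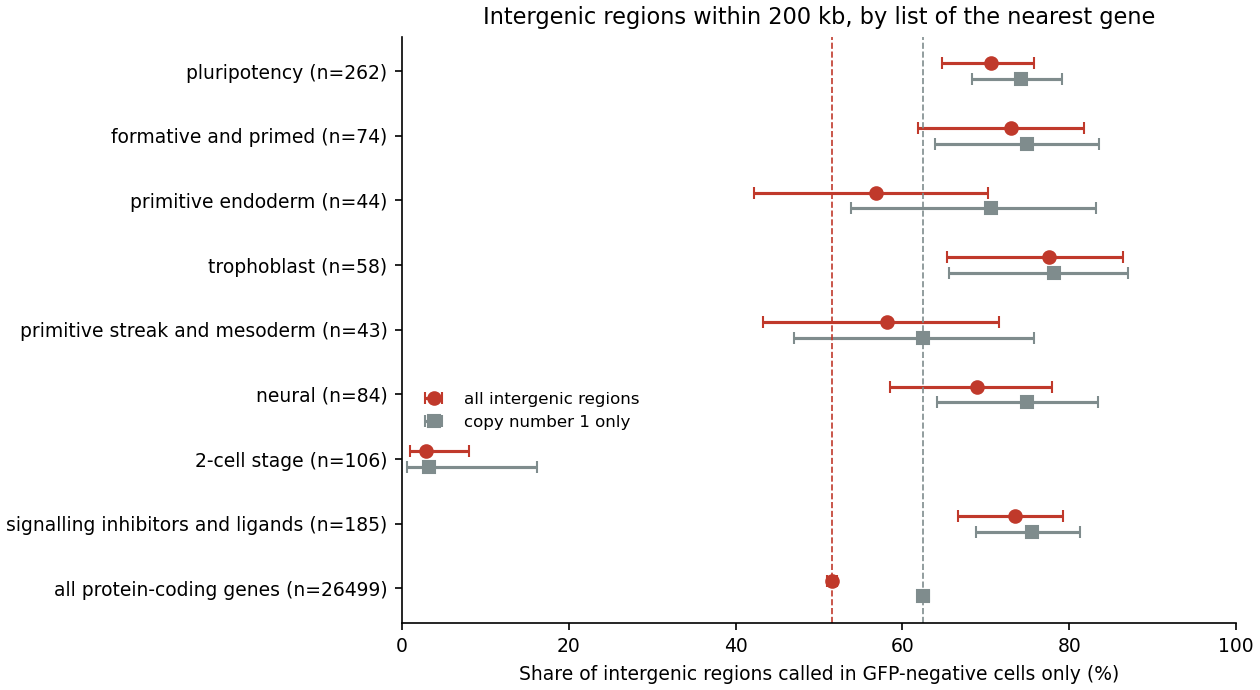
Share (%) of intergenic regions within 200 kb that were GFP-negative-only, by the list of the nearest protein-coding gene, for all regions (circles, with n) and for single-copy regions (squares), with Wilson 95% intervals. Dashed lines mark all protein-coding genes, at 51.6% and 62.5%, and the 2-cell-stage genes lie at 2.83%.

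Sox2, a core factor of the ESC state, had 13 GFP-negative-only intergenic regions, all downstream, from 41.2 to 145 kb from its start. A distal enhancer cluster is known to act in ESCs on this side of Sox2, and its position was not compared with these regions. Their median −log10 q was 2.89, and the strongest (chr3:34744772-34746190, 95.1 kb downstream) reached 47.8 with a fold enrichment of 19.6. It was the tenth strongest region of all, was free of masked sequence, and its nearest GFP-positive peak was 11.8 kb away. The 2 common intergenic regions near Sox2 lay among the GFP-negative-only ones, 107 and 110 kb downstream, with −log10 q of 19.3 and 6.53. The GFP-negative-only region at 105 kb had 2.32.

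Tfap2c had 28 regions, of which 25 were downstream of its start, with −log10 q from 1.45 to 34.8 and a median of 4.82. No GFP-positive-only region and 3 common ones were assigned to it. Zfp281 had 23, split into 11 upstream and 12 downstream, beside 7 common and 4 GFP-positive-only regions. Its strongest (chr1:136727687-136728352, 103 kb downstream) had a −log10 q of 19.4.

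Other pluripotency genes had fewer. Tbx3 (a T-box factor of naive ESCs) and Mycn (a MYC family proto-oncogene) had 14 each, and Sall4 (a zinc-finger partner of OCT4) had 13, all upstream. Klf5 had 9, with no common or GFP-positive-only region beside them. Prdm14, a repressor that protects the naive state, had 8 and Klf4 had 7, its strongest 56.1 kb downstream with a −log10 q of 10.6. Nanog, Esrrb and Klf2 had 5 each, and the strongest at Nanog reached a −log10 q of only 2.80. Pou5f1, which encodes OCT4, had 3 regions upstream of its start and 3 common ones. Tfcp2l1 had 3 regions, all of them downstream. Zfp42, Stat3, Utf1 and Trim28 had none.

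Genes of the signalling pathways that ESC cultures depend on were covered to a similar extent, with 23 of 26 nearest to at least 1 region. Socs3, a target and inhibitor of the LIF pathway that is in this list and in that of pluripotency, had 10, all downstream, beside 6 common regions. Its strongest (chr11:117933724-117935635, 34.5 kb downstream) had a −log10 q of 65.9, a fold enrichment of 17.2 and a width of 1912 bp. Smad7 (an inhibitor of TGF-beta signalling) and Bmp7 (a BMP ligand) had 22 each. Lef1 (a WNT effector, also in the formative list) had 9, all upstream, with no other intergenic region near it. Id2 (a BMP target), Dusp4 (an ERK phosphatase), Axin2 (a WNT inhibitor) and Spry4 (an FGF inhibitor) had 7 each. Nodal had 4 and its inhibitor Lefty1 had 1.

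Among lineage genes, Sox1 had 10 regions, the most of the neural list, followed by Olig2 and Gbx2 with 7 each, and the primed-state factors Foxd3 and Otx2 had 8 and 2. In the trophoblast list, which also holds Id2, Ets2 had 6, Gata2 5 and Cdx2 4. In the primitive streak list Gsc, a homeobox gene of the organizer, had 7 and Lhx1 had 4. In the primitive endoderm list Sparc had 8, against 2 at Gata6. Of the 2-cell-stage list, Obox5, Zfp352 and Zscan4e had 1 each, with −log10 q of 1.47, 1.45 and 2.89.

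**Figure D5:**
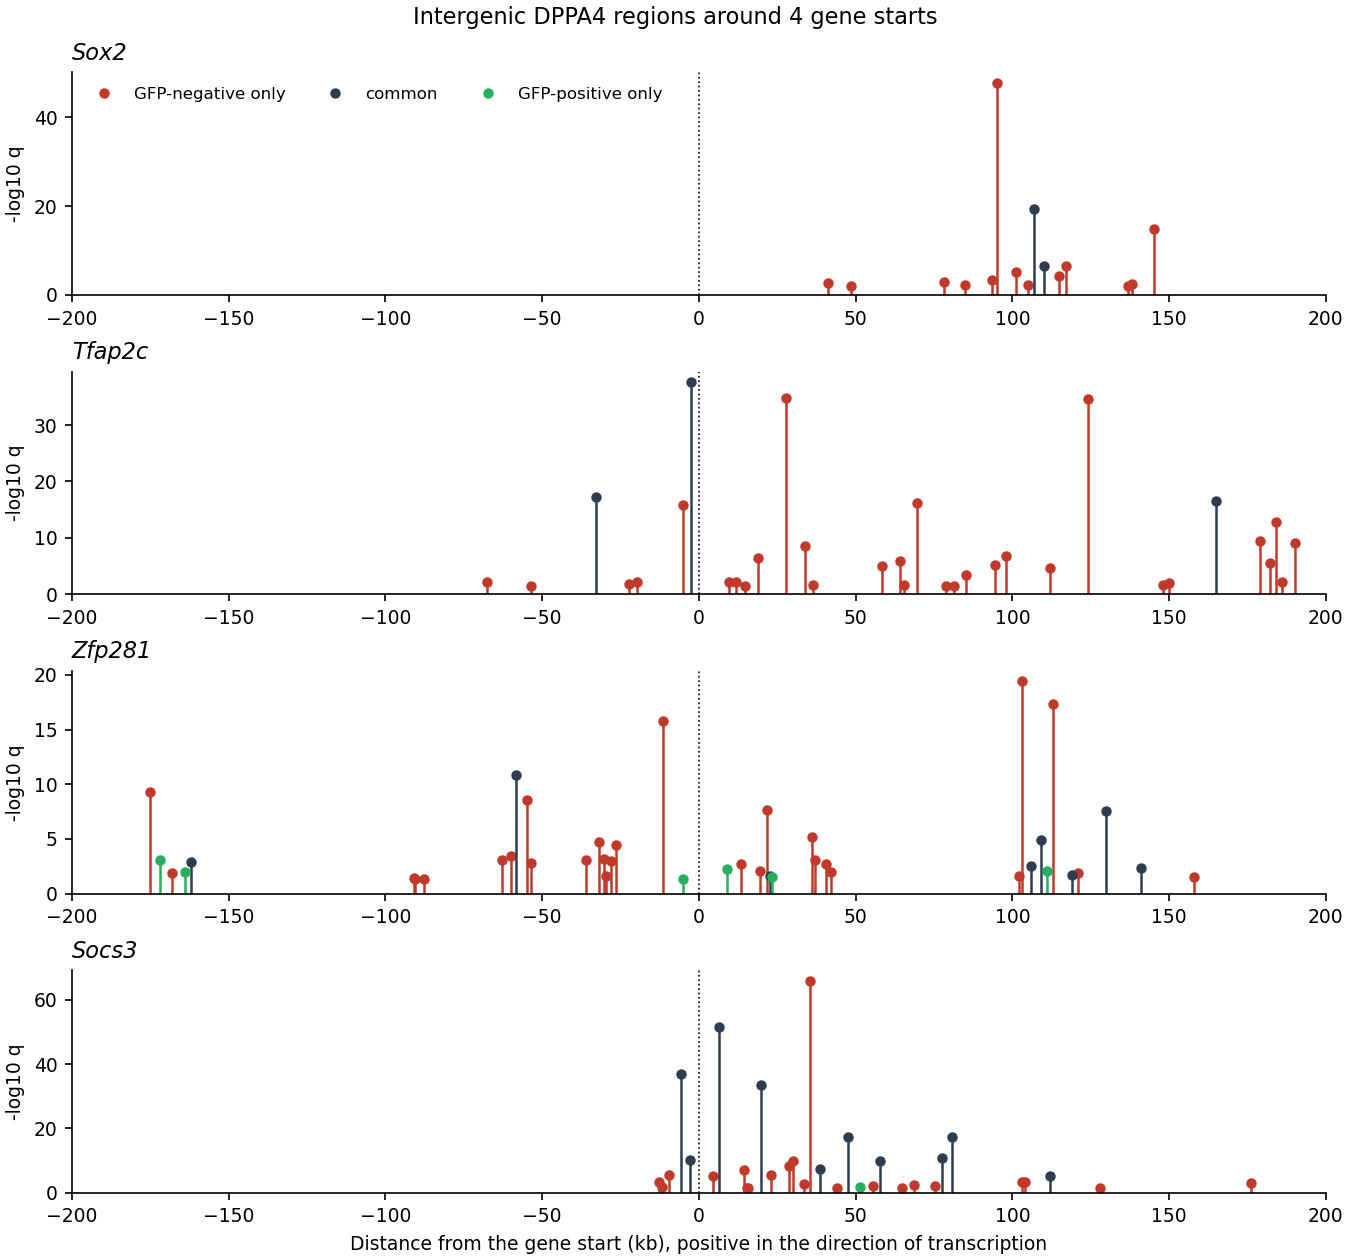
Intergenic DPPA4 regions within 200 kb of 4 gene starts, with the distance from the start (kb, positive in the direction of transcription) on the horizontal axis and the −log10 q of the strongest peak on the vertical axis. Near Sox2 there are 13 GFP-negative-only and 2 common regions, all on the downstream side, and near Socs3 common regions lie among the GFP-negative-only ones.

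The 10 strongest regions were an uneven set. The strongest of all (chr15:47539996-47540134, −log10 q of 214, near Csmd3) was just 139 bp wide and had a copy number of 7. The fourth, 220 kb from Atp23, also had a copy number of 7, and the seventh, over 200 kb from Pappa, lay wholly in masked sequence with a copy number of 1776 and held the YY1 letters. The other 7 were single-copy on the assembled chromosomes, and copies elsewhere were not counted. The second (chr1:136364703-136365160) had a −log10 q of 108, 18.8 kb upstream of Camsap2, which encodes a protein of microtubule minus ends. The Socs3 region came next. Then followed regions near Elf3, an epithelial ETS factor (60.6), Apbb1ip, an adaptor of integrin activation (58.5), H2afy, which encodes the histone variant macroH2A1 (56.2), Hs6st1, a heparan sulfate sulfotransferase (50.6), and Sox2. The Hs6st1 region was 0.871 kb from a GFP-positive peak, and the nearest such peak was 2.55 to 19.3 kb away from the other 9.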

How the data were processed

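DPPA4 CUT&RUN peaks of sorted cells were taken as deposited. Per the study's methods and processing notes, the authors aligned reads with STAR (2.7.10), placing multimapping reads at 1 random best position, removed duplicates with Picard (2.26.0) and blacklisted reads, and called peaks on pooled replicates with MACS2 (2.2.6, mm10). The deposited fold enrichment, as the authors made it, divides the summit's fragments by the peak caller's background, and the deposited −log10 q is the authors' adjusted significance. No other per-sample value was used, and depth is unknown.

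Regions were built, annotated with GENCODE vM21 and read from GRCm38.p6 with Python (3.11.15), numpy (2.4.6) and pandas (2.3.3), and the functions were tested on simulated peaks. The region's highest −log10 q peak gave its summit. Nearest genes were protein-coding, within 200 kb of the midpoint. Members and gene lists were chosen with earlier results of these data known. Of 20 words searched, 5 (GCCACACC, ATGCTAAT, ATTGTNATG, AACAATAG and GCCAATCA) were added after word counts in these regions had been seen, and they support nothing on their own. The text names the 10 strongest regions, the 10 genes with most regions, the 10 largest groups, and listed genes with most regions. Listed genes with few or no regions were chosen after their values were seen. Intervals are Wilson 95% intervals and treat neighbouring regions as independent. Regions are not replicates, so no test was made.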

Additional observations from a re-analysis of the deposited data

Results flagged for a closer look

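The GFP-negative list held 1570 peaks on E. coli sequence, outside every comparison above, and the GFP-positive list held 0. The study's CUT&RUN methods list an E. coli spike-in in the buffer that ended the digestion. What lay behind this difference between the lists was not tested.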

How the results depend on the processing

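No paired analysis was possible because the replicates of a group are pooled in its peak list, and for that reason none could be left out. Of 80 alternative values, 41 stayed within the interval of the main value (1.5 times for counts) and 39 moved. Requiring a −log10 q of 5 left 3371 regions. They were 11% of all 30747 intergenic regions, of which 10865 reached that strength, so the 11% is not a share among equally strong regions. They had 21.8% soft-masked bases, with 66.2% within 50 kb of a protein-coding start and 48.3% within 50 kb of each other. Of the pluripotency genes 16 were nearest to one, where 10.3% of all protein-coding genes were. Limiting both lists to their 10000 strongest peaks gave 764 GFP-negative-only regions, 21.6% of the intergenic regions then formed. They can include regions that were common in the full lists, since weaker GFP-positive peaks were dropped. This limit gave 25.0%, 73.2%, 20.8% and 10 genes for the same quantities (2.97% of all genes), and 0.654% with the ESRRB letters. Counting a GFP-positive peak within 1 kb as shared gave 44.5% of intergenic regions, 66.8% near a start and 76.9% near each other. Single-copy regions alone gave 62.8% of single-copy intergenic regions, 17.7% soft-masked bases, 69.4% near a start and 79.6% near each other. Using the summit in place of the midpoint moved none of the 16 quantities. The CTCF share stayed at 5.06% to 5.27% under every alternative. The smaller sets hold fewer regions, which by itself lowers the share with a neighbour. Depth sets how many weak peaks are called, and it is unknown here.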

Other observations

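The sex chromosomes were outside the rule. On chromosome X, 247 of 973 intergenic regions (25.4%, Wilson 95% interval 22.8 to 28.2) were GFP-negative-only, 499 were common and 227 GFP-positive-only. On chromosome Y, 11 of 207 (5.31%, 2.99 to 9.26) were GFP-negative-only, 129 common and 67 GFP-positive-only. On chromosomes 1 to 19 the share ran from 40.5% (38.1 to 43.0) on chromosome 3 to 55.0% (52.9 to 57) on chromosome 2.

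Letters of simple repeats were rarer at the summits of GFP-negative-only intergenic regions than in their flanks, as they were over all regions (4.03% against 7.33% for CACACACA, 2.55% against 3.88% for GAGAGAGA). CACACACA occurred in 4.07% (3.77 to 4.40) of the summit windows and 8.73% of the flanking windows, and GAGAGAGA in 2.97% (2.71 to 3.26) and 4.77%. Common intergenic regions had 2.42% and 5.99% for CACACACA. In GFP-positive-only intergenic regions these shares were 4.81% (4.34 to 5.33) and 4.94% for CACACACA, and 4.37% (3.92 to 4.87) and 3.25% for GAGAGAGA. The SOX-type letters AACAATAG occurred in 2.87% (2.61 to 3.15) of GFP-negative-only intergenic summits and 0.653% of flanks, and in 2.16% (1.93 to 2.42) of the single-copy ones. The octamer variant ATGCTAAT occurred in 2.2% (1.97 to 2.44), against 0.657% of flanks.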
